A study of Mus musculus with 9 samples.

Results

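The genes that encode the activator protein-1 (AP-1) transcription factors were followed in RNA-seq libraries of the murine T15 cell line. They were chosen by name: Fos, Fosb, Fosl1 and Fosl2 of the Fos family, Jun, Junb and Jund of the Jun family, Batf and Batf3 of the Batf family, and Atf3. All 10 were found among the 35288 genes of the deposited table, and 8 of them were among the 13697 genes that passed the filter on low counts. Fosl1 and Batf3 did not pass it and are described by their counts.

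T15 is a Smarcb1-negative cell line derived from murine peripheral T-cell lymphoma (PTCL), and Smarcb1 is a core subunit of the SWI/SNF chromatin remodeling complex. The 9 libraries comprised 3 replicates each of control cells, cells given SAHA (1 µM, added repeatedly over 72 h), which blocks histone deacetylases, and Smarcb1-RE cells, in which Smarcb1 was re-expressed. Smarcb1-RE cells carried a lentiviral Smarcb1 plasmid, were selected with G418 and were induced with doxycycline (Dox, 0.5 µg/µl) for 72 h. All groups share the Smarcb1-negative T15 background and the same culture medium. The labels describe both a vehicle control and a control plasmid and do not say which of them the 3 control libraries received, so that the effect of Smarcb1 and those of transduction, G418 and Dox cannot be told apart. The paper's results section calls the control cells untreated. If they carried the plasmid and the SAHA cells did not, SAHA and transduction or selection cannot be told apart either. The study's methods call the 3 libraries of each group biological replicates, and the labels do not say whether the Smarcb1-RE libraries come from separate clones.

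AP-1 is a dimer of basic leucine zipper proteins. Jun proteins pair with themselves or with Fos proteins, which cannot form stable homodimers, and the dimers bind the sequence TGACTCA. Fos, Fosb, Jun and Junb are classical immediate early genes, switched on within minutes when the T-cell receptor activates MAP kinases, and Batf proteins pair with Jun proteins and, together with Irf4 or Irf8, bind composite elements in lymphocytes.

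Smarcb1 itself was counted 2, 5 and 8 times in the control libraries, 7, 13 and 3 times in the SAHA libraries and 151, 147 and 142 times in the Smarcb1-RE libraries, which matches the labels. It was 4.89 ± 0.36 (SE) higher on the log2 scale in Smarcb1-RE than in control cells (adjusted p = 6.19e-08). Library totals ranged from 20900477 to 24941494 estimated counts and were lowest in the Smarcb1-RE group. Control replicate 1 stood apart from the other control libraries over all genes, with a chi-square per gene of 12.6 and 14.1 against them, where other replicate pairs had 2.07 to 4.55. Without it, the calls of the AP-1 genes were the same except for Batf with SAHA and Jund in Smarcb1-RE versus control, as given with these genes. Of the T cell markers, Cd8a and Cd3e were high, with means of 690.1 and 395.6 CPM (counts scaled to a common library total) in control cells, whereas Cd4 and Cd2 did not exceed 3 counts in any library. The summed level of 4 B cell markers was 0.936 to 1.14 CPM in control, 1.24 to 1.86 CPM in SAHA and 7.20 to 7.92 CPM in Smarcb1-RE libraries. The summed level of 5 stromal and epithelial markers was 7.57 to 9.87, 9.14 to 10.3 and 66.4 to 68.7 CPM, mostly from Pdgfra, with Pdgfrb at or under 3 counts. Of the 3 that were tested, Pdgfra and Col1a1 were higher and Epcam lower in Smarcb1-RE than in control cells. Epcam was counted 29, 17 and 24 times in control, 54, 69 and 77 times in SAHA and 3, 0 and 2 times in Smarcb1-RE libraries. The summed level of 7 myeloid markers was 2.11 to 2.67, 5.93 to 7.49 and 1.90 to 2.03 CPM, with Csf1r, Adgre1 and Elane at or under 3 counts. The higher myeloid sum with SAHA came from Cd68 (mean 1.69 CPM in control and 6.75 CPM with SAHA), whereas Itgam went from 12, 8 and 11 counts to 0, 1 and 1 and Lyz2 from 4, 2 and 2 counts to 0 in each library. The part of these markers in the results for the AP-1 genes was not tested.

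To place the expression values beside regulatory sequence, the 250 bases before the transcription start are shown for Fos, Jun and Junb, from RefSeq on GRCm38.p6. These are the promoters of the immediate early genes that differed between the groups and whose windows overlap no annotated exon. The windows lie at chr12:85473640-85473889 on the plus strand for Fos, at chr4:95052223-95052472 on the minus strand for Jun and at chr8:84978749-84978998 on the minus strand for Junb. Capitals mark the only motif matches described below.
Fos: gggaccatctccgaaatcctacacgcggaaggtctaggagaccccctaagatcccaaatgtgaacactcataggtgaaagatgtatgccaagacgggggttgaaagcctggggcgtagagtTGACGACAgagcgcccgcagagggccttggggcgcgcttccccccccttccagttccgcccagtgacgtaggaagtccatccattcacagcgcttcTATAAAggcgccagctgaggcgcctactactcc
Jun: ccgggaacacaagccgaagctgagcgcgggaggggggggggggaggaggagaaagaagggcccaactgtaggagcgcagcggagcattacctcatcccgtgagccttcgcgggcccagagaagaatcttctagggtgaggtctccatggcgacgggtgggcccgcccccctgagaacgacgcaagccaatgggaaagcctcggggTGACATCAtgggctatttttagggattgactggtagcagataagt
Junb: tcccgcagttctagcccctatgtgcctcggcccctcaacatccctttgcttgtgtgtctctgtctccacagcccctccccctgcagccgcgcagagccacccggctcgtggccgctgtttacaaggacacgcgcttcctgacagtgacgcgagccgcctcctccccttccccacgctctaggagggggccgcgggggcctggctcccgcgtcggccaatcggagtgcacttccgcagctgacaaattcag

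A window of this kind was available for 9 of the 10 genes, all but Fosl1, and for 32851 starts in all. Not every window ends at the annotated gene start. Counted from that start, the RefSeq start lay at 34706 bases for Atf3, 671 for Fosl2, 567 for Batf3 and -1210 for Jund (minus is upstream). The AP-1 site TGACTCA, searched on both strands as TGACTCA or TGAGTCA, was present in 0 of the 9 windows and in 4.46% of all windows. The cAMP response element TGACGTCA, which reads the same on both strands, was present in 0 of 9 and in 1.55% of all. Allowing up to 1 mismatch to TGACGTCA gave matches in Fos (TGACGACA, bases -129 to -122 from the start), Jun (TGACATCA, bases -45 to -38) and Atf3 (TTACGTCA, bases -10 to -3), against 10.64% of all windows. The CArG box, which serum response factor binds, was present in 0 of 9 and in 1.47% of all, and TATAAA on the promoter strand was present in Fos alone (bases -33 to -28) and in 7.59% of all windows. The search with 1 mismatch and that for TATAAA were chosen after the sequences had been seen. Sequence more than 250 bases before the start was not searched, so CArG boxes and other sites there would have been missed.

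In control cells the AP-1 transcripts spanned a wide range of levels, which are compared between genes as CPM per kilobase of annotated exon. Junb was the most abundant, at 160.9 ± 10.4 CPM per kb (SD, n = 3), followed by Batf at 114.1 ± 11.6 and Jund at 96.1 ± 2.43. Fos stood at 4.61 ± 0.295 CPM per kb, Fosl2 at 2.59 ± 0.205, Jun at 2.01 ± 0.169 and Fosb at 1.97 ± 0.0347. Atf3 (0.318 CPM per kb), Fosl1 (0.124) and Batf3 (0.0175) formed the low end. Neighbours in this order did not overlap in their libraries except Jun and Fosb. In SAHA cells Fosb stood above Jun, and the libraries of Atf3 and Fosl1 overlapped. In Smarcb1-RE cells Batf took the first place (130.5 ± 4.4 CPM per kb) ahead of Junb (114.2 ± 7.36), and the libraries of Batf3 and Fosl1 overlapped.

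**Figure D1:**
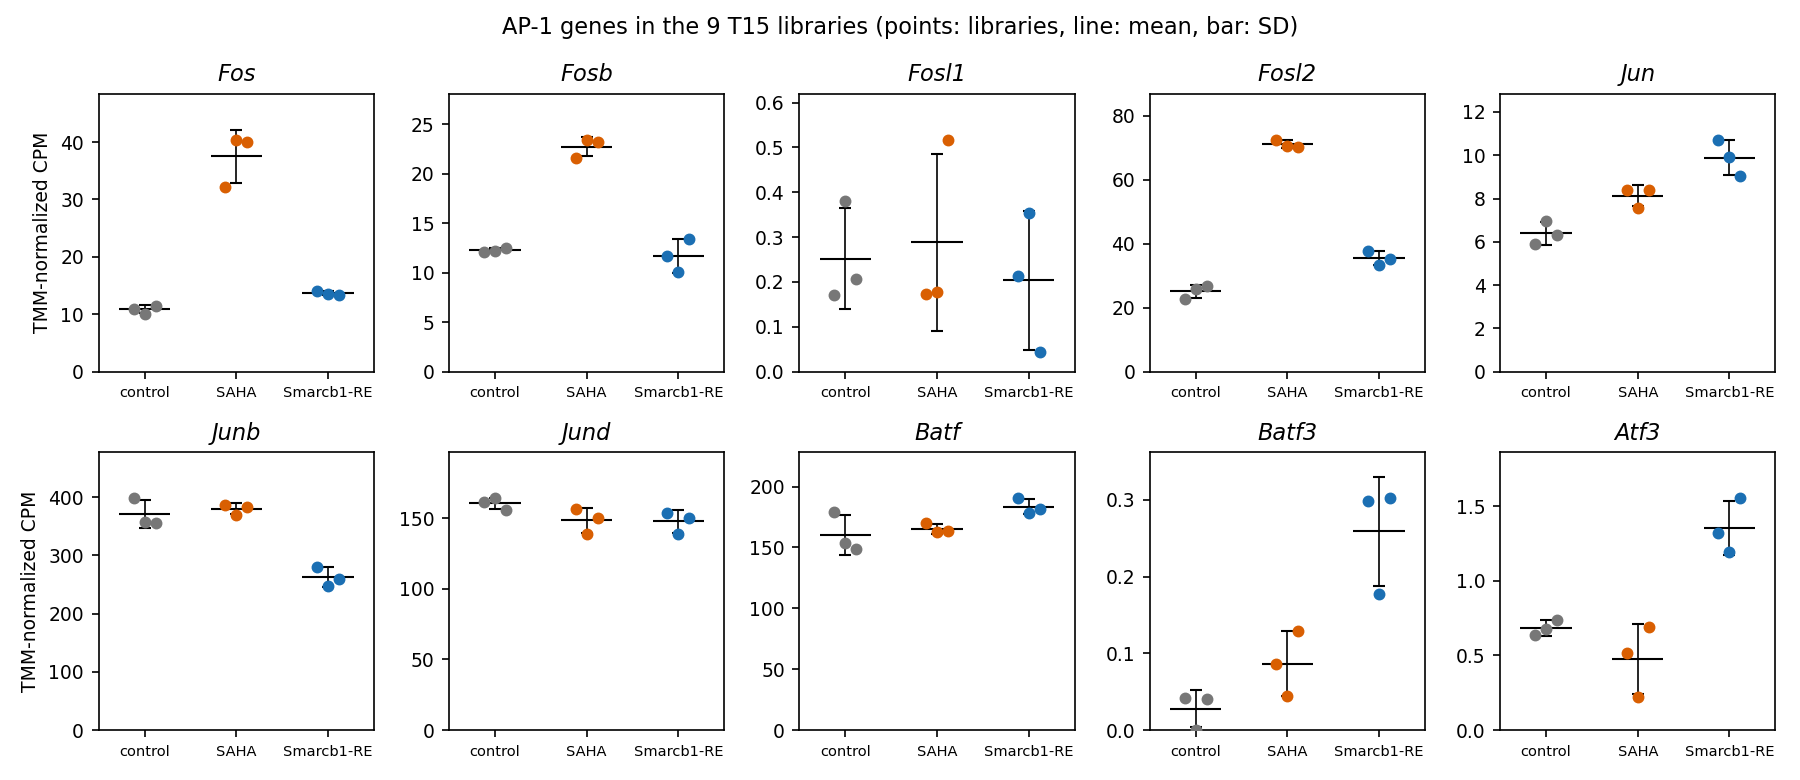
TMM-normalized CPM of the 10 AP-1 genes (vertical axes, each starting at 0) in control, SAHA and Smarcb1-RE libraries. Points are libraries, horizontal lines means and bars SD (n = 3). Fos, Fosb and Fosl2 are highest in the SAHA libraries, Jun, Batf3 and Atf3 in the Smarcb1-RE libraries, Batf has its highest mean there, and Junb is lowest in the Smarcb1-RE libraries.

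The comparison of SAHA with control asks how AP-1 mRNA differs after treatment with this inhibitor of histone deacetylases. The paper reports strong apoptosis in this cell line at the SAHA concentration used for these libraries, with most cells dead. The part of cell death in the results with SAHA, here and in the gene lists below, was not tested. With SAHA, Fos, Fosl2, Fosb and Jun were higher and no AP-1 gene was lower, which is 4 of 8 tested genes higher against 32.6% of all tested genes and 0 of 8 lower against 34.3%. No AP-1 gene was lower at an unadjusted p under 0.05 either, with edgeR or with DESeq2. The median log2 fold change of the 8 genes was 0.19, beside 0.00 for all tested genes. In bulk RNA, fewer cells that express a gene and less of its mRNA per cell cannot be told apart.

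After re-expression of Smarcb1, Jun, Fosl2, Fos, Atf3 and Batf were higher and Junb and Jund lower than in control cells. These are 5 of 8 genes higher, where 39.2% of all tested genes were, and 2 of 8 lower, where 38.6% were. In Smarcb1-RE compared with SAHA cells, Jun, Batf and Atf3 were higher (3 of 8 against 37.7% of all) and Fos, Fosb, Fosl2 and Junb lower (4 of 8 against 36.8%). The 3 comparisons share libraries and are not independent. With 8 genes these counts are a description. All adjusted p-values are from edgeR's quasi-likelihood test with Benjamini-Hochberg adjustment over all tested genes.

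Scaling bears on the small changes. With TMM factors the median log2 fold change of all tested genes between Smarcb1-RE and control was 0.01, with library totals alone it was 0.17, and the share of higher genes among the calls went from 50.4% to 61.0%. Between Smarcb1-RE and SAHA that share went from 50.6% to 62.1%.

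**Figure D2:**
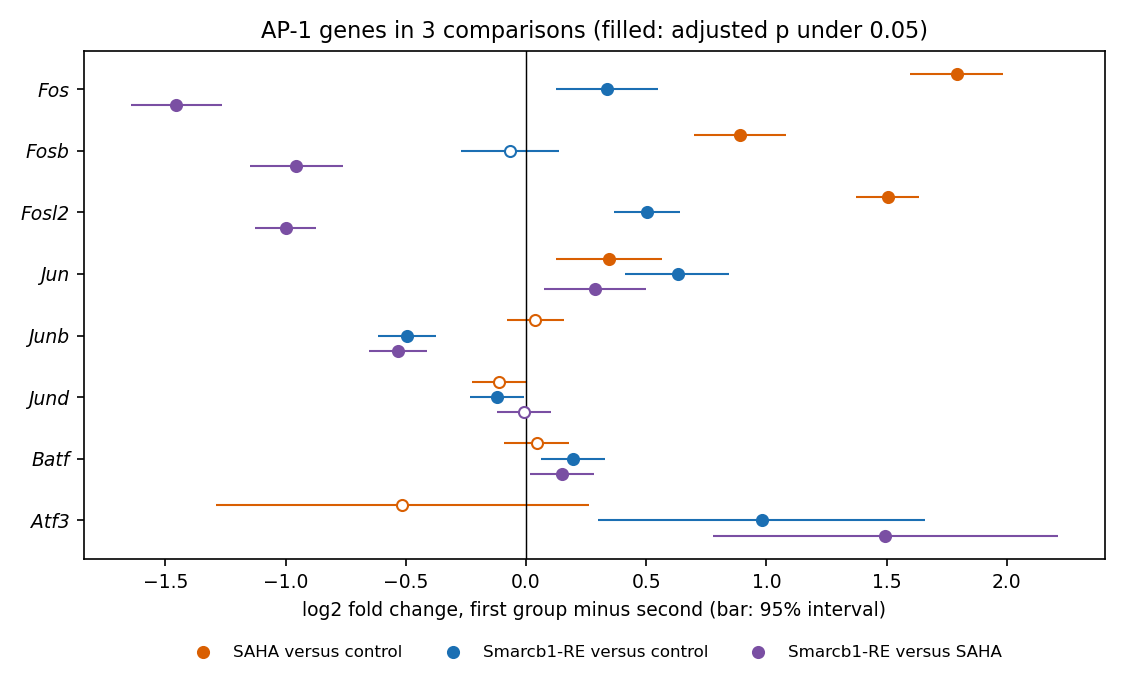
Log2 fold change (horizontal axis, first group minus second) of the 8 tested AP-1 genes in the 3 comparisons. Bars are 95% intervals and filled points have an adjusted p under 0.05. Fos (1.79) and Fosl2 (1.50) lie farthest to the right for SAHA versus control, and Junb (-0.49) lies to the left for Smarcb1-RE versus control.

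Among the Fos family, Fos (chromosome 12, 85473890 to 85477273, 4 exons) encodes c-Fos, the best known dimerization partner of Jun. Its normalized level was 11.0, 10.1 and 11.5 CPM in the control libraries, 32.2, 40.4 and 40.1 CPM in the SAHA libraries and 14.1, 13.6 and 13.4 CPM in the Smarcb1-RE libraries. Every SAHA library was above every other library, and the Smarcb1-RE libraries were all above the control libraries by a smaller distance. Fos was thus 3.46-fold higher with SAHA (log2 fold change 1.79 ± 0.09 SE, adjusted p = 7.04e-09) and 1.26-fold higher in Smarcb1-RE cells (0.34 ± 0.10, adjusted p = 0.00702). Between the treatments, Smarcb1-RE cells had the lower level (log2 fold change -1.46 ± 0.09, adjusted p = 9.75e-09).

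Fosl2 encodes Fra-2, a Fos protein that lacks a strong transactivation domain, and lies on chromosome 5 (32135801 to 32157842). It measured 22.8, 25.7 and 26.7 CPM in control, 72.5, 70.5 and 70.3 CPM in SAHA and 37.8, 33.5 and 35.3 CPM in Smarcb1-RE libraries. The 3 groups did not overlap, with control lowest and SAHA highest. The log2 fold change was 1.50 ± 0.06 for SAHA versus control (adjusted p = 1.95e-09), 0.50 ± 0.06 for Smarcb1-RE versus control (adjusted p = 9.72e-06). The 95% interval of the log2 fold change between Smarcb1-RE and SAHA was -1.13 to -0.87 (adjusted p = 7.72e-09).

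Fosb (chromosome 7, 19302696 to 19310051) encodes FosB and, by alternative splicing, a truncated form that this gene-level table does not resolve. Its level was 12.1, 12.2 and 12.5 CPM in control, 21.6, 23.4 and 23.2 CPM in SAHA and 11.7, 10.1 and 13.5 CPM in Smarcb1-RE libraries. The SAHA libraries were all above the others, and the Smarcb1-RE libraries lay on both sides of the control libraries. Fosb was 1.85-fold higher with SAHA (log2 fold change 0.89 ± 0.09, adjusted p = 1.82e-06). It did not differ detectably between Smarcb1-RE and control (-0.07, 95% interval -0.27 to 0.14, adjusted p = 0.537), and this value turns to 0.09 with library totals alone and to 0.03 without Smarcb1-RE replicate 2.

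The fourth member, Fosl1, encodes Fra-1 and was near the detection limit, with 4, 9 and 5 counts in control, 4, 4 and 12 counts in SAHA and 5, 8 and 1 counts in Smarcb1-RE libraries. The groups overlapped, and no difference was detectable at this depth. Its annotated span on chromosome 19 overlaps Ccdc85b on the opposite strand, and reads of overlapping genes may have been divided in the authors' quantification.

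Within the Jun family, Jun (chromosome 4, 95049034 to 95052222, a single exon) encodes c-Jun, the partner of Fos whose activity the JNK kinases raise. Its level was 5.91, 6.98 and 6.29 CPM in control, 8.40, 7.56 and 8.40 CPM in SAHA and 10.7, 9.92 and 9.06 CPM in Smarcb1-RE libraries. The groups did not overlap, and Jun was highest in Smarcb1-RE cells, unlike Fos, Fosb and Fosl2. Jun was 1.27-fold higher with SAHA (log2 fold change 0.35 ± 0.10, adjusted p = 0.00917) and 1.55-fold higher in Smarcb1-RE cells (0.63 ± 0.10, adjusted p = 7.53e-05). It was also higher in Smarcb1-RE than in SAHA cells (0.29 ± 0.10, adjusted p = 0.0183), a call that was lost without SAHA replicate 2 or Smarcb1-RE replicate 1 and with DESeq2.

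The level of Jun stands beside a shift of its chromosome. The 674 expressed protein-coding genes of chromosome 4 had a median log2 fold change of 0.29 between Smarcb1-RE and control, beside -0.10 for 9661 genes of the other autosomes, and of -0.09 and -0.06 with SAHA. Between Smarcb1-RE and SAHA these medians were 0.38 for chromosome 4 and -0.04 for the other autosomes, and Jun itself stood at 0.29. The part of the chromosome in the higher level of Jun was not tested. For the other 6 chromosomes that carry AP-1 genes, the medians between Smarcb1-RE and control lay between -0.17 (chromosome 5) and -0.02 (chromosome 7).

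Junb (chromosome 8, 84974484 to 84978718) encodes JunB, a weaker activator than c-Jun that can also restrain it and that takes part in T-helper differentiation. It measured 398.0, 357.8 and 355.2 CPM in control, 387.2, 370.0 and 383.9 CPM in SAHA and 281.0, 247.4 and 260.2 CPM in Smarcb1-RE libraries. The Smarcb1-RE libraries were all below the others, and control and SAHA libraries overlapped. Junb fell by 0.49 ± 0.06 on the log2 scale in Smarcb1-RE relative to control (adjusted p = 3.42e-06) and by 0.53 ± 0.06 relative to SAHA (adjusted p = 1.84e-06). Between SAHA and control the difference was 0.04 (95% interval -0.08 to 0.16, adjusted p = 0.558).

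The end of the Junb span overlaps Prdx2, a peroxiredoxin gene on the opposite strand. The library kit marks strand, but the strand setting of the authors' quantification is not given in the sources used here. Prdx2 was 0.39 higher on the log2 scale with SAHA (adjusted p = 0.000245) and fell by 0.82 in Smarcb1-RE cells (adjusted p = 2.41e-07), and its part in the Junb values was not tested.

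Jund (chromosome 8, 70698949 to 70700616, a single exon) encodes JunD, the Jun protein with the steadiest expression in most cells. It measured 161.2, 163.9 and 155.9 CPM in control, 156.2, 139.0 and 150.1 CPM in SAHA and 153.9, 138.7 and 150.1 CPM in Smarcb1-RE libraries. The Smarcb1-RE libraries were all slightly below the control libraries, and the SAHA libraries overlapped both groups. The log2 fold change was -0.11 with SAHA (95% interval -0.22 to 0.00, adjusted p = 0.0746) and -0.12 ± 0.05 in Smarcb1-RE cells (adjusted p = 0.0495). The latter call was lost without control replicate 1 or 2, SAHA replicate 3 or Smarcb1-RE replicate 2 or 3, and the value turned to 0.04 with library totals alone. It was also lost with a filter of at least 10 counts in every library. The call with SAHA, which was not made with all libraries, was made without SAHA replicate 1 and without a filter on low counts. Between Smarcb1-RE and SAHA the difference was -0.01 (95% interval -0.12 to 0.10, adjusted p = 0.887), and with library totals alone it turned to 0.15 and passed the test (adjusted p = 0.0155).

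Of the Batf family, Batf (chromosome 12, 85686669 to 85709087) encodes a short basic leucine zipper protein without a transactivation domain that is required for several T-helper and effector programs. Its level was 179.0, 153.3 and 148.8 CPM in control, 169.7, 162.4 and 163.7 CPM in SAHA and 190.3, 178.3 and 181.7 CPM in Smarcb1-RE libraries. The Smarcb1-RE libraries were above all SAHA libraries, but the lowest of them was just below control replicate 1. The log2 fold change was 0.19 ± 0.06 for Smarcb1-RE versus control (adjusted p = 0.0111), 0.15 ± 0.06 for Smarcb1-RE versus SAHA (adjusted p = 0.0403) and 0.04 for SAHA versus control (95% interval -0.09 to 0.18, adjusted p = 0.551).

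These small differences of Batf depended on single libraries. Without control replicate 1 Batf was 0.13 higher with SAHA and passed the test (adjusted p = 0.00904), and without control replicate 3 it turned to -0.01. The call between Smarcb1-RE and control was lost without control replicate 2 or 3 or Smarcb1-RE replicate 1, and that between Smarcb1-RE and SAHA was lost without control replicate 2 or any of the SAHA or Smarcb1-RE libraries.

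Batf3, which dendritic cells and memory T cells use, was counted 1, 0 and 1 times in control, 2, 1 and 3 times in SAHA and 7, 4 and 7 times in Smarcb1-RE libraries. Only the Smarcb1-RE libraries were above 3 counts, the level taken as the detection floor. The summed counts of 18 in Smarcb1-RE and 2 in control correspond to a ratio of 9.29 after normalization, with a 95% counting interval of 2.23 to 82.6 (exact binomial), which covers counting error only. For SAHA versus control the ratio was 3.11 with an interval of 0.556 to 31.5.

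Atf3, a stress-induced factor that represses many targets as a homodimer, lies 61.4 kb from Batf3 on chromosome 1. It measured 0.638, 0.676 and 0.740 CPM in control, 0.520, 0.221 and 0.689 CPM in SAHA and 1.32, 1.20 and 1.55 CPM in Smarcb1-RE libraries, from 5 to 36 counts each. The Smarcb1-RE libraries were all above the others, and control and SAHA libraries overlapped. Atf3 was 1.97-fold higher in Smarcb1-RE than in control cells (log2 fold change 0.98 ± 0.31, adjusted p = 0.0119) and 2.82-fold higher than in SAHA cells (1.50 ± 0.33, adjusted p = 0.00121). The call against control was lost without Smarcb1-RE replicate 3 (0.87, adjusted p = 0.0527), and SAHA and control differed by -0.52 (95% interval -1.29 to 0.26, adjusted p = 0.22).

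The composition of AP-1 mRNA was expressed as the share of each gene in the summed CPM per kb of the 10 genes. The sum was 382.8 ± 22.4 in control, 401.8 ± 10.2 in SAHA and 348.5 ± 16.8 CPM per kb in Smarcb1-RE libraries. The 4 Fos family genes held 2.22%, 2.43% and 2.66% of it in control, 6.03%, 7.25% and 6.99% of it in SAHA and 3.24%, 3.32% and 3.32% of it in Smarcb1-RE libraries. The 3 groups did not overlap in this share, and the exact two-sided permutation test gave p = 0.1 for each pair of groups, which is the smallest value that 3 against 3 libraries allow.

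The Jun family held 67.7% ± 1.05 of the sum in control, 63.9% ± 0.695 in SAHA and 59.0% ± 0.63 in Smarcb1-RE cells (SD, n = 3), again without overlap (exact permutation p = 0.1 for each pair). In Smarcb1-RE cells the lower share came with Junb, at 32.8% ± 0.549 against 42.0% ± 0.448 in control, while Jund held 25.4% ± 0.451 and 25.2% ± 1.33. In SAHA cells Jund held 22.1% ± 0.74, below all control libraries, and Junb 41.1% ± 0.112. Batf held 29.8% ± 1.26 in control and 37.5% ± 0.62 in Smarcb1-RE cells, with no overlap (exact permutation p = 0.1), and 29.3% ± 0.42 in SAHA cells, where it overlapped with control (exact permutation p = 0.8). The shares within a library are tied, so a lower share of Junb raises those of other genes. The level of Batf itself was 114.1 CPM per kb in control and 130.5 CPM per kb in Smarcb1-RE cells, with overlapping libraries.

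**Figure D3:**
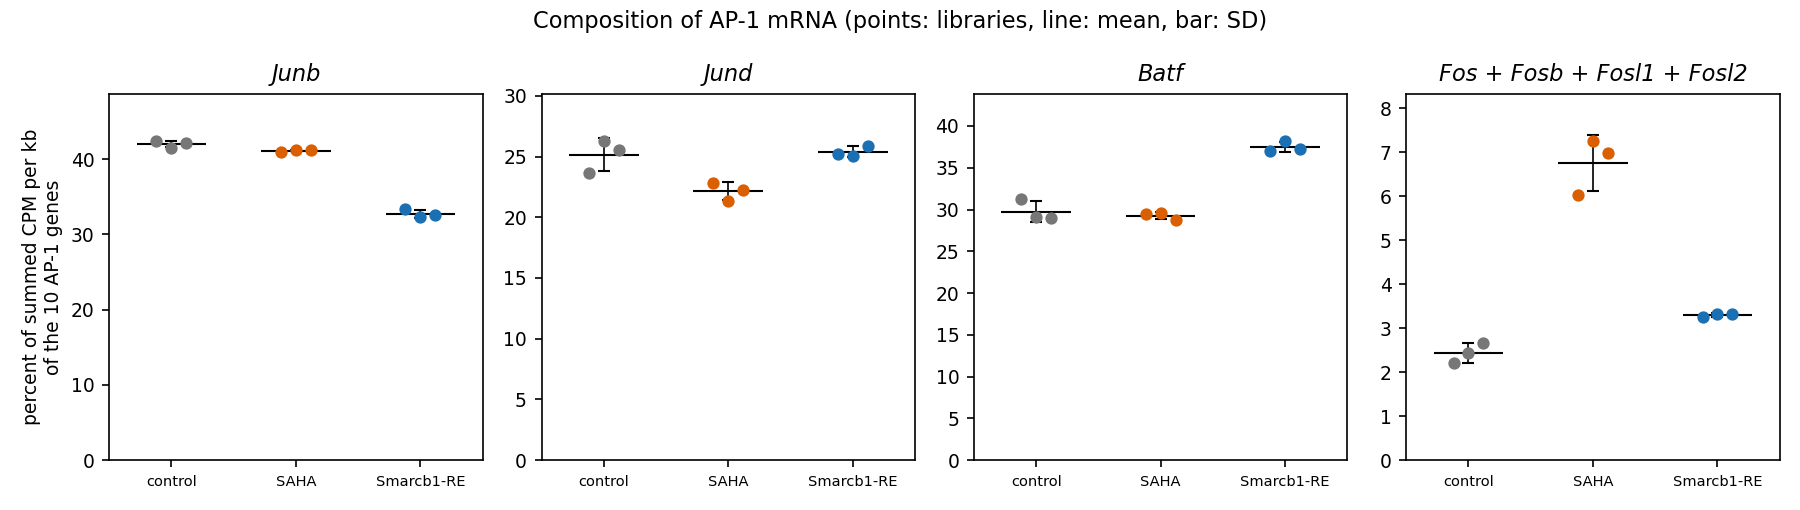
Share of Junb, Jund, Batf and the 4 Fos family genes in the summed CPM per kb of the 10 AP-1 genes (vertical axes, percent, starting at 0). Points are libraries, lines means and bars SD (n = 3). The Fos family share is largest in SAHA libraries (mean 6.75%), and in Smarcb1-RE libraries the share of Junb is lower and that of Batf higher than in both other groups.

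Fos and Batf lie on the same chromosome with 209.4 kb between them, and Jdp2, which encodes a repressor of AP-1 of the same protein class, lies between them. Jdp2 was abundant, at 272.9 ± 4.16 CPM in control, 293.7 ± 1.45 CPM in SAHA and 216.7 ± 1.76 CPM in Smarcb1-RE cells (SD, n = 3). It was 0.11 higher on the log2 scale with SAHA (adjusted p = 0.0147) and fell by 0.33 in Smarcb1-RE cells (adjusted p = 1.38e-06). With SAHA, of 5 tested genes within 200 kb of Fos, 2 were higher and 2 lower, with a median log2 fold change of -0.07 beside 1.79 for Fos. In Smarcb1-RE cells, all 3 tested genes within 200 kb of Batf were lower (median log2 fold change -0.70), beside 38.6% of all tested genes. Batf itself stood at 0.19.

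**Figure D4:**
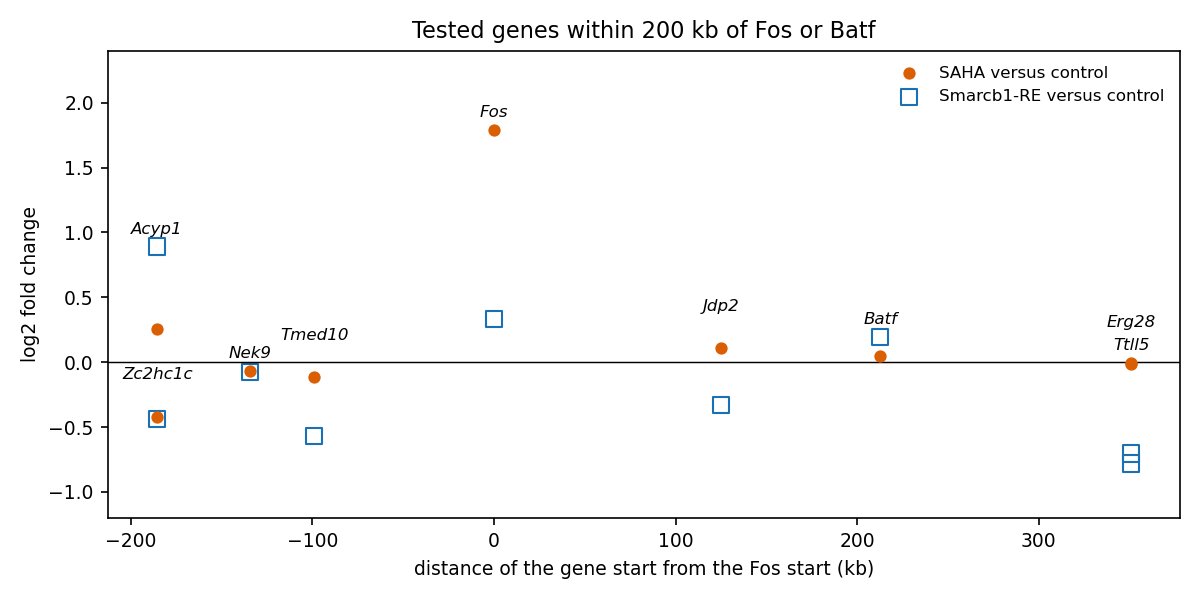
Log2 fold change (vertical axis) of the tested genes within 200 kb of Fos or Batf, by distance of the gene start from that of Fos in kb (horizontal axis). Filled circles are SAHA versus control and open squares Smarcb1-RE versus control. With SAHA, Fos stands at 1.79 and Jdp2 and Batf at 0.11 and 0.04.

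The surroundings of the AP-1 genes are read beside the same shares over all tested genes. These were 32.6% higher and 34.3% lower with SAHA, and 39.2% higher and 38.6% lower in Smarcb1-RE versus control. Of 16 tested genes within 200 kb of Fosb, 10 were higher with SAHA and 2 lower (median log2 fold change 0.40), and around Jund 15 of 23 were higher and 3 lower (median 0.50), although Jund itself did not pass the test. In Smarcb1-RE versus control, 3 were higher and 8 lower around Fosb (median -0.49), and 6 higher and 7 lower around Jund (median 0.04). In that comparison 6 were higher and 12 lower around Fosl1, and 3 higher and 3 lower around Batf3. Around Fosl1 4 of 22 were higher and 12 lower with SAHA, and 5 of 7 were lower around Batf3 and 5 of 6 around Atf3, whose windows share genes. Around Junb 12 of 23 genes were lower and 5 higher in Smarcb1-RE cells (median -0.27), and 9 were lower and 9 higher with SAHA (median 0.10). The single tested neighbour of Fosl2 was lower in both comparisons with control, and around Atf3 3 of 6 were higher and 1 lower in Smarcb1-RE cells.

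Upstream of the AP-1 genes, MAP kinases phosphorylate Elk factors, which act with serum response factor (Srf). Of 30 tested genes for MAP kinases, their activating kinases and these factors, 15 were higher and 10 lower with SAHA, and 9 were higher and 17 lower in Smarcb1-RE cells, where library totals alone gave 12 higher and 9 lower. For this and the following gene lists, the shares over all tested genes are those given above, 32.6% higher and 34.3% lower with SAHA and 39.2% higher and 38.6% lower in Smarcb1-RE versus control. Elk1, a partner of Srf at the Fos promoter, was 0.94 higher on the log2 scale with SAHA (adjusted p = 8.31e-07). Srf fell by 0.58 in Smarcb1-RE cells (adjusted p = 1.79e-07), whereas Map3k5, a stress-activated kinase upstream of JNK, was 1.92 higher (adjusted p = 2.98e-07).

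Many MAP kinase phosphatases are themselves induced by MAP kinase signals. Of 10 tested, 5 were higher and 2 lower with SAHA (median log2 fold change 0.17), and 0 were higher and 5 lower in Smarcb1-RE cells (median -0.23). In the latter comparison 0 were higher at an unadjusted p under 0.05 as well, with edgeR and with DESeq2, but with library totals alone 1 was higher and 2 were lower. The 2 lower with SAHA were 1 with DESeq2 and without control replicate 2, SAHA replicate 1 or SAHA replicate 3. Dusp5, a nuclear phosphatase of ERK, was at 80.3 CPM in control, 185.8 CPM in SAHA and 31.3 CPM in Smarcb1-RE cells on average. Its log2 fold change with SAHA was 1.21 ± 0.04 (adjusted p = 6.91e-10), against -1.36 ± 0.05 in Smarcb1-RE (adjusted p = 6.54e-11) and -2.57 ± 0.05 between them (adjusted p = 3.55e-13).

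Among 8 genes whose products modify or degrade AP-1 proteins, 1 was higher and 6 lower with SAHA (75.0% lower beside 34.3% of all tested genes), and 2 were higher and 5 lower in Smarcb1-RE cells (62.5% lower beside 38.6%). Itch, a ubiquitin ligase for c-Jun and JunB, fell by 0.79 ± 0.06 on the log2 scale with SAHA (adjusted p = 9.55e-08), where its mean went from 70.7 to 40.8 CPM, and stood at 70.5 CPM in Smarcb1-RE cells. Apex1, which reduces the DNA-binding cysteine of Fos and Jun, fell by 1.07 in Smarcb1-RE cells (adjusted p = 7.41e-09). Fbxw7, a ubiquitin ligase subunit for phosphorylated c-Jun, was 0.37 higher with SAHA (adjusted p = 8.18e-05) and differed by -1.18 between Smarcb1-RE and SAHA (adjusted p = 2.18e-09).

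Of the 8 genes for factors that bind DNA together with AP-1, 3 were higher and 2 lower with SAHA, and 4 were higher and 4 lower in Smarcb1-RE cells. The 4 lower became 2 with library totals alone and with at least 10 counts in every library. Irf4, the partner of Batf and Jun proteins in T cells, averaged 412.0 CPM in control, 845.7 CPM in SAHA and 290.9 CPM in Smarcb1-RE cells. It was 1.04 ± 0.05 higher on the log2 scale with SAHA (adjusted p = 7.04e-09) and fell by 0.50 ± 0.05 in Smarcb1-RE cells (adjusted p = 1.55e-06), whereas Batf was higher there by the small amount given above. Irf8, the related factor, was counted 63, 78 and 73 times in control, 334, 439 and 447 times in SAHA and 8, 12 and 11 times in Smarcb1-RE libraries, with log2 fold changes of 2.56 (adjusted p = 1.27e-08) and -2.73 (adjusted p = 2.45e-07). Nfatc2, a calcium-regulated partner of Fos and Jun, was lower with SAHA (log2 fold change -1.15, adjusted p = 9.75e-07), and Nfatc1 was higher in Smarcb1-RE cells (1.01, adjusted p = 2.7e-07).

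The other immediate early genes were mostly higher with SAHA, 15 of 18 tested, with 2 lower and a median log2 fold change of 0.79, which is 83.3% higher beside 32.6% of all tested genes. The 2 lower were 1 with DESeq2 and without control replicate 2 or 3 or SAHA replicate 1. In Smarcb1-RE cells 6 were higher and 7 lower (median -0.06). Egr3, a zinc finger factor induced by T-cell receptor signals, was counted 10, 9 and 8 times in control, 129, 148 and 179 times in SAHA and 3, 4 and 0 times in Smarcb1-RE libraries. Its log2 fold change was 4.11 ± 0.30 with SAHA (adjusted p = 1.46e-07) and -1.85 ± 0.55 in Smarcb1-RE cells (adjusted p = 0.00838). Nr4a3, an orphan nuclear receptor, was higher in Smarcb1-RE cells (2.38 ± 0.08, adjusted p = 9.25e-11) and with SAHA (2.22 ± 0.08, adjusted p = 1.44e-09). Klf2, a factor of quiescent T cells, was higher in Smarcb1-RE cells (1.27 ± 0.21, adjusted p = 0.000114) and lower with SAHA (-1.16 ± 0.25, adjusted p = 0.00128).

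Of 35 textbook AP-1 targets 22 were tested. Among those not tested, Il2, Il21 and Il17a had 0 counts in every library. With SAHA 15 were higher and 4 lower (median log2 fold change 0.93), and in Smarcb1-RE cells 9 were higher and 11 lower (median -0.37). Ifng, which encodes interferon gamma, was counted 604, 527 and 539 times in control, 3827, 4149 and 4061 times in SAHA and 586, 538 and 614 times in Smarcb1-RE libraries. It was 2.90 ± 0.06 higher on the log2 scale with SAHA (adjusted p = 5.37e-11), and the Smarcb1-RE and control libraries overlapped. Cd69, an early activation marker of T cells, was 2.31 ± 0.11 higher with SAHA (adjusted p = 4.35e-09), where the mean went from 14.8 to 73.7 CPM. Of the 4 targets lower with SAHA, Trp53 and Odc1 had the largest changes (log2 fold change -0.56 for each, adjusted p = 1.28e-06 and 1.01e-07).

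In Smarcb1-RE cells other targets were at the top of the list. Il10, an anti-inflammatory cytokine, was counted 2, 1 and 5 times in control, 2, 0 and 2 times in SAHA and 85, 89 and 111 times in Smarcb1-RE libraries (log2 fold change versus control 5.14, adjusted p = 1.1e-07, with few counts in the controls). Bcl2l11, which encodes the proapoptotic protein Bim, was 2.01 ± 0.07 higher (adjusted p = 5.91e-11) and was also higher with SAHA (1.07 ± 0.07, adjusted p = 4.83e-08). Odc1, an enzyme of polyamine synthesis, fell by 1.77 ± 0.04 (adjusted p = 3.55e-12), from a mean of 1896 CPM in control to 557.6 CPM.

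**Figure D5:**
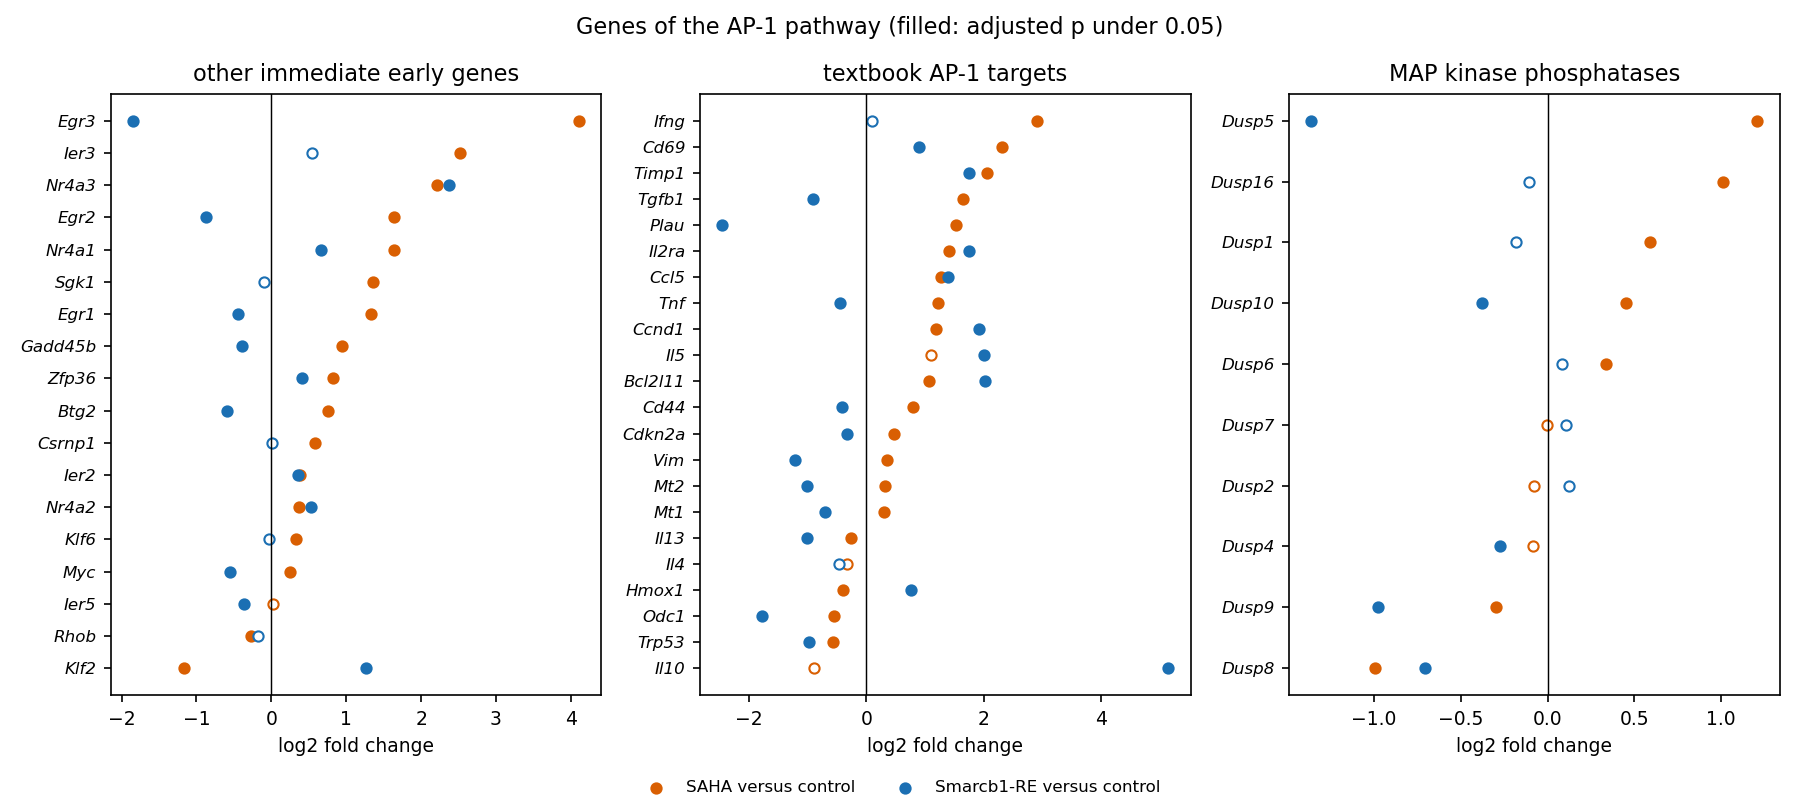
Log2 fold change (horizontal axes) of tested immediate early genes other than AP-1, textbook AP-1 targets and MAP kinase phosphatases, for SAHA versus control and Smarcb1-RE versus control. Filled points have an adjusted p under 0.05. With SAHA 15 of 18, 15 of 22 and 5 of 10 genes are filled to the right of 0, and in Smarcb1-RE 6, 9 and 0.

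The wider class of basic leucine zipper factors outside AP-1 was split. Of 31 tested genes, 10 were higher and 11 lower with SAHA, and 18 were higher and 8 lower in Smarcb1-RE cells (median log2 fold change 0.29). Ddit3, which encodes the stress factor CHOP, went from a mean of 9.04 CPM in control to 4.38 CPM with SAHA and to 37.4 CPM in Smarcb1-RE cells, under the main of 2 overlapping identifiers of that name. Its log2 fold change was -1.04 ± 0.10 (adjusted p = 1.08e-06) and 2.05 ± 0.08 (adjusted p = 1.45e-10). Maff, a small Maf protein, was 1.90 ± 0.30 higher with SAHA (adjusted p = 9.55e-05) from 9 to 14 counts in control, and Creb3l2 was 2.11 ± 0.12 higher in Smarcb1-RE cells (adjusted p = 6.85e-09).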

How the data were processed

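The authors deposited 1 table of estimated counts for each library and Ensembl gene, without normalization or pooling. The submitters' processing notes name Salmon 0.14.1, DESeq2 1.22.2 and GRCm38 without their roles. Counts were rounded to whole numbers here (52.4% of the values above 0 were not whole). Names, positions and exon lengths were taken from GENCODE M21, which held 99.5% of the identifiers and 99.95% of the counts, and promoter sequences from RefSeq. How reads of overlapping or similar genes were divided is not given in the sources used here, so such values are uncertain. Protein sequences were not used here.

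Groups were compared by edgeR 4.0.16 (R 4.3.3) with the quasi-likelihood functions glmQLFit and glmQLFTest, fitted to all 9 libraries with TMM factors after filterByExpr (minimum count 10). P-values were adjusted after Benjamini-Hochberg over all tested genes and called under 0.05. The SE was obtained from the log2 fold change and F (the change over the root of F). The calculation was tested on simulated counts. A gene at 3 counts corresponds to 0.120 to 0.144 CPM on library totals alone, without TMM factors. This floor takes no account of variation between replicates. Groups and replicate numbers come from the sample labels. The alternatives were DESeq2 1.42.0, median-ratio (RLE) factors, library totals, no filter, 10 counts in every library, separate fits, the replicate number as a block, calls limited to an absolute log2 fold change of at least 1 or to an adjusted p under 0.01, other gene lengths, unrounded counts and leaving out each library.

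The AP-1 genes and all gene lists were chosen with earlier results of these data known. All 10 genes are named. From each list and comparison, the genes named were drawn from those with the 2 largest log2 fold changes in each direction among genes that passed the test and whose libraries did not overlap. Jdp2, Prdx2 and the markers were named for their position or role, and Il2, Il21 and Il17a for their lack of counts. For each tested AP-1 gene, the 2 genes with the smallest Euclidean distance between centred log2 CPM profiles (prior count 2) over the 9 libraries were also named, except for Fosl2, for which they are not reported here.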

Additional observations from a re-analysis of the deposited data

How the results depend on the processing

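Of the log2 fold changes of the 8 tested AP-1 genes, 380 of 429 kept their direction and their side of the threshold over all alternatives, 38 lost and 3 gained a call and 8 reversed. Of the counts over the other gene lists, 61 of 756 moved by more than 1.5 times. The replicate block changed no count of AP-1 genes called and no call (Fos with SAHA 1.79 under the block). Deviations of same-numbered libraries from their group means correlated at -0.003 on average (-0.072 to 0.037 over 9 pairs), so no pairing by replicate number was seen. The mean for different numbers, 0.002, is tied to this value by the centring within groups and is no separate comparison. When calls needed an absolute log2 fold change of at least 1, 2 genes were higher with SAHA, 0 higher and 0 lower in Smarcb1-RE versus control, and 1 higher and 2 lower in Smarcb1-RE versus SAHA. With an adjusted p under 0.01, 3 were higher and 1 lower in Smarcb1-RE versus control, and 1 higher in Smarcb1-RE versus SAHA. Without a filter on low counts 1 was lower with SAHA. In Smarcb1-RE versus control 1 was lower with library totals alone and 1 with at least 10 counts in every library. Leaving out single libraries gave 0 to 1 lower with SAHA, 1 to 2 lower in Smarcb1-RE versus control and 1 to 3 higher in Smarcb1-RE versus SAHA. Reversed values were Fosb in Smarcb1-RE versus control (0.093 with library totals, -0.178 to 0.030 over libraries left out), Jund in Smarcb1-RE versus control (0.039 with library totals, -0.163 to -0.080 over libraries left out), Jund in Smarcb1-RE versus SAHA (0.150 with library totals, 0.013 with at least 10 counts, -0.069 to 0.033 over libraries left out) and Batf with SAHA (-0.008 to 0.128 over libraries left out). The cause was not tested. With the length of the longest transcript, the difference in share between Smarcb1-RE and SAHA was -5.95 percentage points for the Jun family and 9.28 for the Batf family, instead of -4.88 and 8.22. Depth limits Fosl1, Batf3 and Atf3, whose libraries held at most 36 counts.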

Other observations

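The genes whose profiles over the 9 libraries lay closest to those of the AP-1 genes are given as a description, by Euclidean distance between centred log2 CPM values. They were Nt5c (0.257) and Tg (0.275) for Fos, Furin (0.263) and Plagl1 (0.283) for Fosb, and Card6 (0.236) and Ggh (0.237) for Jun. For Junb they were Sclt1 (0.088) and Lamtor2 (0.096), for Jund Lcp2 (0.114) and Ythdc1 (0.136), for Batf Eif2s3y (0.087) and Ndufa13 (0.089), and for Atf3 Ctbp2 (0.654) and Sfxn4 (0.666). Among them no gene was itself a basic leucine zipper factor.

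Without a filter on low counts, Batf3 passed the test between Smarcb1-RE and control (log2 fold change 2.97 ± 0.89 SE, edgeR adjusted p = 0.00732), a value that depends on the prior count because control libraries held at most 1 count. Under the same setting Fosl1 differed by -0.33 ± 0.67 between Smarcb1-RE and control (adjusted p = 0.725).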
